A study of Mus musculus with 6 samples.

Results

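Cathepsins are among the proteases of the lysosome. The 10 genes described here, Ctsa, Ctsb, Ctsc, Ctsd, Ctsf, Ctsh, Ctsk, Ctsl, Ctss and Ctsz, were taken by name, and each was read from the probe set with exactly 1 gene symbol and the highest mean over the 6 arrays. On that rule 9 of the 10 were measured, among 30702 named genes. Each of the 9 had a single probe set. Ctsd, which encodes the aspartic protease cathepsin D, is on the array only in a probe set that also carries another gene symbol, and it was not analysed here.

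The mice were C57BL/6 males aged 2 months, and RNA of their inguinal white fat, a subcutaneous depot, was measured on whole-transcript arrays. The KO group held 3 mice with floxed TFG alleles and the Adipoq-ERT2Cre transgene, a tamoxifen-inducible Cre recombinase driven by the adiponectin promoter, so that deletion is aimed at adipocytes. The WT group held 3 mice with the floxed alleles and no Cre. Both groups were injected with tamoxifen on 5 days, and 2 weeks passed before the RNA was taken. Values are log2 signals, so a difference of 1 is a doubling, and means are over n = 3 arrays per group.

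Cathepsins are made as inactive precursors in the endoplasmic reticulum, pass through the Golgi, where most receive a mannose 6-phosphate tag, and are cut to their active form in endosomes and lysosomes. Most are cysteine proteases related to papain. Cathepsin A is a serine carboxypeptidase and cathepsin D an aspartic protease. In fat they are studied for the digestion of autophagic cargo and of matrix, in adipocytes as well as in macrophages.

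The promoters are shown because many lysosomal genes are known to be activated by TFEB, a transcription factor that binds E-box sequences. RefSeq windows of 300 bases (250 before to 50 after the gene's start, GRCm38.p6) matched 8 of the 10 genes, in 9 windows, as Ctsa has 2. Ctsb and Ctsh had no entry. The E-box CACGTG, which reads the same on both strands, was in 1 window or more of 4 of the 8 genes, Ctsa, Ctsd, Ctsf and Ctsl. It was in 7.15% of all 32851 windows of this length. That share counts windows, while the 4 of 8 counts genes, of which Ctsa has 2 windows. Of the 4 genes Ctsl rose, Ctsa and Ctsf did not pass the threshold used below, and Ctsd was not measured. Ctsc and Ctsz rose without an E-box in their windows, and Ctsk and Ctss, also without one, did not pass. Below are the windows of the 3 measured genes with an E-box, for Ctsa the one that holds it, and of Ctsz, a gene that rose and has none. They are printed 5′ to 3′ with each CACGTG in capitals.
Ctsl, chr13:64370471-64370770, minus strand: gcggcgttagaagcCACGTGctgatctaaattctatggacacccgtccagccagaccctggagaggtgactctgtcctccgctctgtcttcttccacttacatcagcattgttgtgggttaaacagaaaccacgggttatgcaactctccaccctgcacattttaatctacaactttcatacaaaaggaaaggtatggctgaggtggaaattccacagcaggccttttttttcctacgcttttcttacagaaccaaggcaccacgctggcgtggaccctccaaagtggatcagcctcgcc
Ctsa, chr2:164833523-164833822, plus strand: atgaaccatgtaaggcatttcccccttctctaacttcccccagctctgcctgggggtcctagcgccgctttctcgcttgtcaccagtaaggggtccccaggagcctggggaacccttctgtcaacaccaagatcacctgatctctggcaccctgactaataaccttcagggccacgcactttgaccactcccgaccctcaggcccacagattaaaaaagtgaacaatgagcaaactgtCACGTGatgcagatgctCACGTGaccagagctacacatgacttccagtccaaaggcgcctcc
Ctsf, chr19:4854915-4855214, plus strand: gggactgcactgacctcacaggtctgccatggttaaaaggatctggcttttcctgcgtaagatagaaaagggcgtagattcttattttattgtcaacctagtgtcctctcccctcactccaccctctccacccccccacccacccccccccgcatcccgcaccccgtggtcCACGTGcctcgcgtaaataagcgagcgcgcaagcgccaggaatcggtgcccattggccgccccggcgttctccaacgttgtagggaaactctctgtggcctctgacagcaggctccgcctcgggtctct
Ctsz, chr2:174438990-174439289, minus strand: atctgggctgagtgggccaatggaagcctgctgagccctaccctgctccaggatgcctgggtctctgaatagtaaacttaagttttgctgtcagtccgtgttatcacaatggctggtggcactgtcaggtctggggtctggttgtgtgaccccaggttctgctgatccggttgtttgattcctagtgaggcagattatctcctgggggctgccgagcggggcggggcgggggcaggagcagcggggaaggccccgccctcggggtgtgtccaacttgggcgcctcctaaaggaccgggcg
The E-box lay 236 bases before the start in Ctsl and 79 before it in Ctsf. Ctsa had a pair, the first of them 12 bases before the start. Among the printed windows the GC box GGGCGG, searched on both strands, was present 3 times in Ctsz and once in Ctsf. The windows of Ctsc, Ctsd and Ctss, not printed, also held it, as did 35.7% of all windows. A match describes letters only, and no binding was measured. The part of TFEB in the cathepsin values was not tested.

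Of the 9 measured cathepsin genes 5 rose on the KO-labelled arrays, Ctsb, Ctsl, Ctsz, Ctsh and Ctsc, and 0 fell (limma, adjusted p under 0.05 over all probe sets). By comparison, 5.32% of all 65956 probe sets and 10.7% of 18931 protein-coding genes were called higher, and 15.6% and 9.97% were called lower. The median change of the 9 genes was 0.76, against -0.37 for all probe sets and -0.17 for protein-coding genes. On this scale the median probe set thus stood 0.37 below 0, and a gene without any change lay above it. All 3 KO-labelled values stood above all 3 WT-labelled values for 6 of the 9 genes, as they did for 11.1% of all probe sets and 23.5% of protein-coding genes. The opposite order was found for 0 of the 9, 44.9% of all probe sets and 40.8% of protein-coding genes. A rise was not particular to cathepsin genes. Of 15 housekeeping genes 10 were called higher and 0 lower, with a median change of 1.19. All 3 KO-labelled values stood above all WT-labelled values for 13 of these 15 and below for 1. All 5 calls were among the 8 cysteine protease genes. The only other measured gene, Ctsa, was 0.81 higher with a limma adjusted p of 0.0507, so the classes cannot be compared. In whole fat, more cells of a type and more RNA per cell cannot be told apart.

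The arrays themselves differed between the groups, and this bears on every value. On the values as deposited no fall was seen in Tfg, the targeted gene: it read 7.91 to 7.97 on the arrays labelled WT and 7.99 to 8.21 on those labelled KO, a change of 0.14 ± 0.11 (SE, limma adjusted p = 0.345). Relative to the mean of 15 housekeeping genes it stood at -1.46 and was called lower (limma adjusted p = 0.00174), as were 93.5% of all probe sets on that scale. The limma fit on that scale gave every probe set the same SE. For Tfg an exact permutation test of 3 against 3 arrays gave p = 0.1 on both scales, the smallest it can give. The part of the gene that its probe set reads is not stated in these sources. The groups are therefore called by their labels. The housekeeping mean was 9.28 ± 0.22 (SD, n = 3) on WT-labelled arrays and 10.88 ± 0.47 on those labelled KO, a difference of 1.59. The 15 genes did not move alike, with changes from -0.28 for Tfrc to 4.83 for B2m. Values relative to this mean therefore depend on the genes in it. The 1229 olfactory receptor genes, which belong to the nose, read lower, with a median change of -0.81. KO 2 stood apart, with correlations across probe sets of 0.960 and 0.965 to the other KO-labelled arrays, which correlated at 0.986 with each other. No call of any probe set was left without WT 1, WT 2, WT 3 or KO 3. Of the 65956 probe sets 23757, 25102, 21579 and 28697 had an unadjusted p under 0.05 there, in either direction. In each of these 4 fits 6 of the 9 cathepsin genes did. The median change of all probe sets in these fits lay between -0.41 and -0.34.

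Cathepsin B, which cuts inside proteins and also trims dipeptides from their carboxyl end, had the largest change of the family. Ctsb read 8.86, 9.57 and 8.32 on WT 1, 2 and 3 and 12.86, 14.61 and 12.86 on KO 1, 2 and 3. The lowest KO-labelled value lay 3.29 above the highest WT-labelled one, and KO 2 was the highest of the 6. The group means were 8.92 ± 0.63 (SD, n = 3) and 13.44 ± 1.01, a rise of 4.53 ± 0.56 (SE), or 23.0-fold (limma adjusted p = 0.0354). Only 13 of the 30702 named genes had a larger rise. Leaving out KO 2, the rise was 3.94 (limma adjusted p = 0.017), and the adjusted p ran from 4.24e-09 to 0.114 over 18 alternatives.

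Ctsl, which encodes the endopeptidase cathepsin L, had the next largest rise. It read 7.89, 7.48 and 7.58 on the WT-labelled and 9.87, 10.88 and 10.17 on the KO-labelled arrays. The groups were 1.98 apart at their nearest values, and the WT-labelled arrays lay close together. The means were 7.65 ± 0.21 (SD, n = 3) and 10.31 ± 0.52, a rise of 2.66 ± 0.28 (SE), or 6.31-fold (limma adjusted p = 0.0354). Of the named genes 201 rose more.

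Cathepsin Z removes single amino acids from the carboxyl end of proteins. Ctsz read 7.44, 7.34 and 7.43 on the WT-labelled and 8.49, 9.63 and 8.75 on the KO-labelled arrays. The WT-labelled values lay close together, 1.05 below the nearest KO-labelled one, and KO 2 was again the highest. The rise was 1.55 ± 0.30 (SE), or 2.94-fold (limma adjusted p = 0.036).

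Ctsh and Ctsc, whose products both work from the amino end of proteins, rose by less. Cathepsin H is an aminopeptidase, and its gene read 7.47, 7.38 and 7.76 on the WT-labelled and 8.15, 8.32 and 8.43 on the KO-labelled arrays. The rise was 0.76 ± 0.15 (SE), or 1.70-fold (limma adjusted p = 0.0361), and KO 2 was in the middle of its group. Cathepsin C is the dipeptidyl peptidase that activates serine proteases of immune cell granules. Its gene read 6.98, 6.81 and 6.88 on the WT-labelled and 7.29, 7.73 and 7.77 on the KO-labelled arrays. The rise of Ctsc was 0.71 ± 0.16 (SE), or 1.63-fold (limma adjusted p = 0.0403), and it was lost without KO 2 (change 0.64, limma adjusted p = 0.0669). Over 18 alternatives its adjusted p ran from 0.018 to 0.12.

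Ctsa, which encodes the serine carboxypeptidase that also protects neuraminidase 1 and beta-galactosidase in a lysosomal complex, lay just outside the threshold. It read 7.50, 7.47 and 7.46 on the WT-labelled and 8.09, 8.79 and 7.99 on the KO-labelled arrays. The groups did not overlap, and KO 2 stood 0.70 above the next KO-labelled value. The difference was 0.81 ± 0.23 (SE), with a limma adjusted p of 0.0507. Without KO 2 it was 0.56 and passed (limma adjusted p = 0.0284), and over 18 alternatives the adjusted p ran from 0.024 to 0.159.

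Ctss, Ctsk and Ctsf did not pass. Cathepsin S trims the invariant chain of MHC class II in antigen-presenting cells. Ctss read 6.76, 6.79 and 7.23 on the WT-labelled and 7.30, 7.02 and 7.66 on the KO-labelled arrays. The groups overlapped, and the difference was 0.40 ± 0.22 (SE, limma adjusted p = 0.18). Cathepsin K is the collagen-degrading enzyme of osteoclasts and is also made by fibroblasts. Ctsk read 6.17, 6.53 and 6.37 on the WT-labelled and 6.17, 6.20 and 6.32 on the KO-labelled arrays, a difference of -0.13 ± 0.13 (SE, limma adjusted p = 0.456). Ctsf, for the widely expressed endopeptidase cathepsin F, read 7.04, 7.19 and 7.07 on the WT-labelled and 6.99, 7.02 and 7.33 on the KO-labelled arrays, a difference of 0.01 ± 0.14 (SE, limma adjusted p = 0.945). Ctsk and Ctss are next to each other among the protein-coding genes of the RefSeq table, and neither passed.

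**Figure D1:**
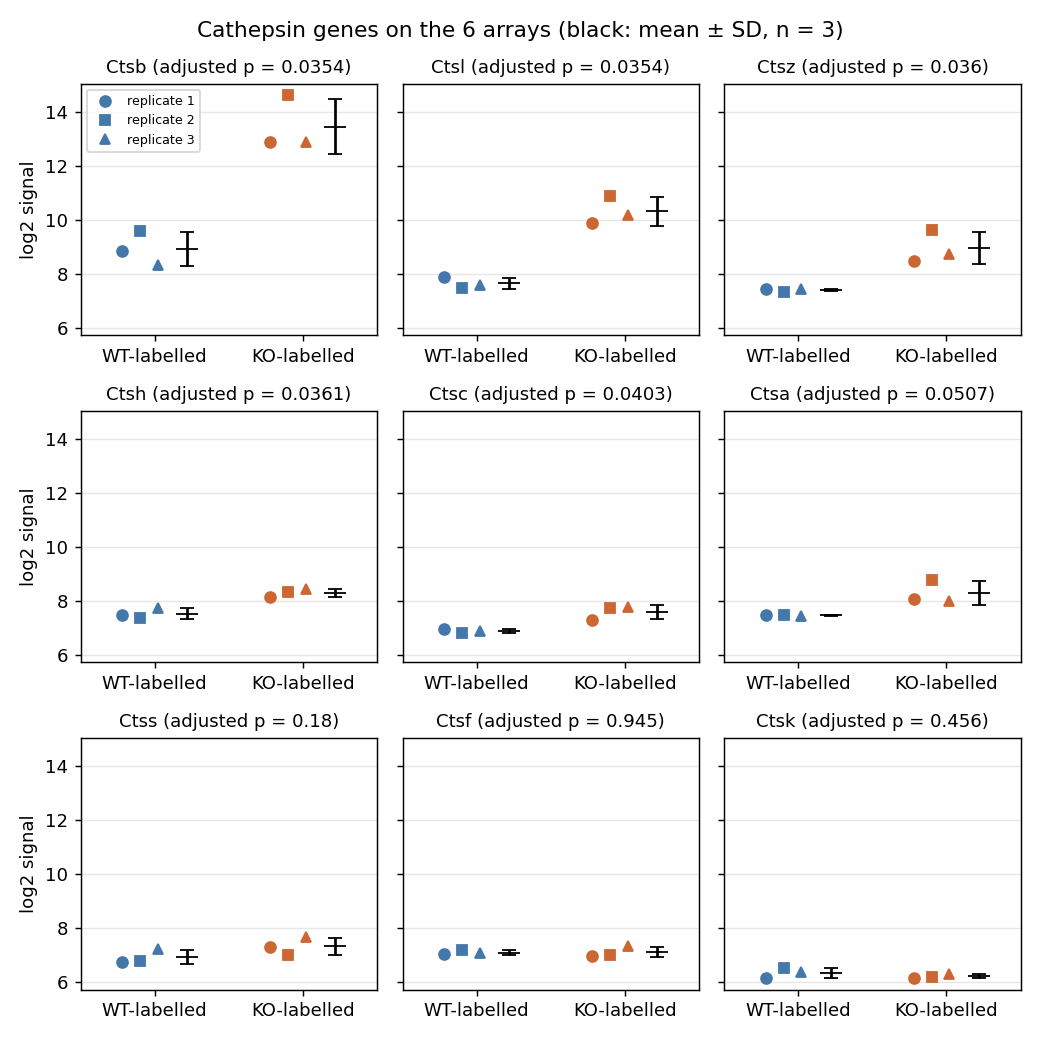
Log2 signal of the 9 measured cathepsin genes on each array, WT-labelled in blue and KO-labelled in orange, with a marker shape for each replicate number and the mean ± SD (n = 3) in black. Ctsb, Ctsl, Ctsz, Ctsh, Ctsc and Ctsa show no overlap between the groups, and Ctss, Ctsf and Ctsk overlap.

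The KO-labelled values of a gene did not all follow the same order. KO 2 was the highest KO-labelled array for 4 of the 9 genes, Ctsb, Ctsl, Ctsz and Ctsa, by 0.70 to 1.75. It was not the highest for the other 5, and for Ctss it was the lowest. The housekeeping mean was also highest on KO 2, at 11.41, against 10.57 and 10.65 on KO 1 and KO 3. Of the cell type markers, Pparg, the master transcription factor of adipocytes, read 11.01, 12.45 and 11.22 on KO 1, 2 and 3. The part of this array in the cathepsin values was not tested beyond leaving it out.

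Subtracting the housekeeping mean of each array left Ctsb and Ctsl higher and turned most others. Relative to it Ctsb went from -0.37 ± 0.41 (SD, n = 3) to 2.57 ± 0.55, a difference of 2.93 ± 0.46 (SE), and Ctsl from -1.63 ± 0.34 to -0.57 ± 0.12, a difference of 1.06 ± 0.46. Ctsz was at -0.04, with a limma adjusted p of 0.93. Ctsa, Ctsc and Ctsh stood at -0.78, -0.89 and -0.83 without passing, and Ctss, Ctsf and Ctsk fell by 1.19, 1.58 and 1.72 relative to the housekeeping mean. The median of all probe sets moved to -1.96 on this scale, on which 0.508% of all probe sets were called higher and 93.5% lower, against 2 and 3 of the 9 cathepsin genes. limma gave every probe set the same SE there, so its p-values rest on 1 pooled spread. After quantile normalization the 9 genes lay between 0.24 and 4.93, with 5 called higher and 0 lower, beside 6.11% and 3.35% of all probe sets. Centring on the array median called 7 higher and 0 lower, beside 7.8% and 4.94%, with Ctsa and Ctss added (limma adjusted p = 0.0434 and 0.0444). Of 18931 protein-coding genes, 2275 were called higher and 351 lower after quantile normalization, and 2893 and 413 after centring.

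**Figure D2:**
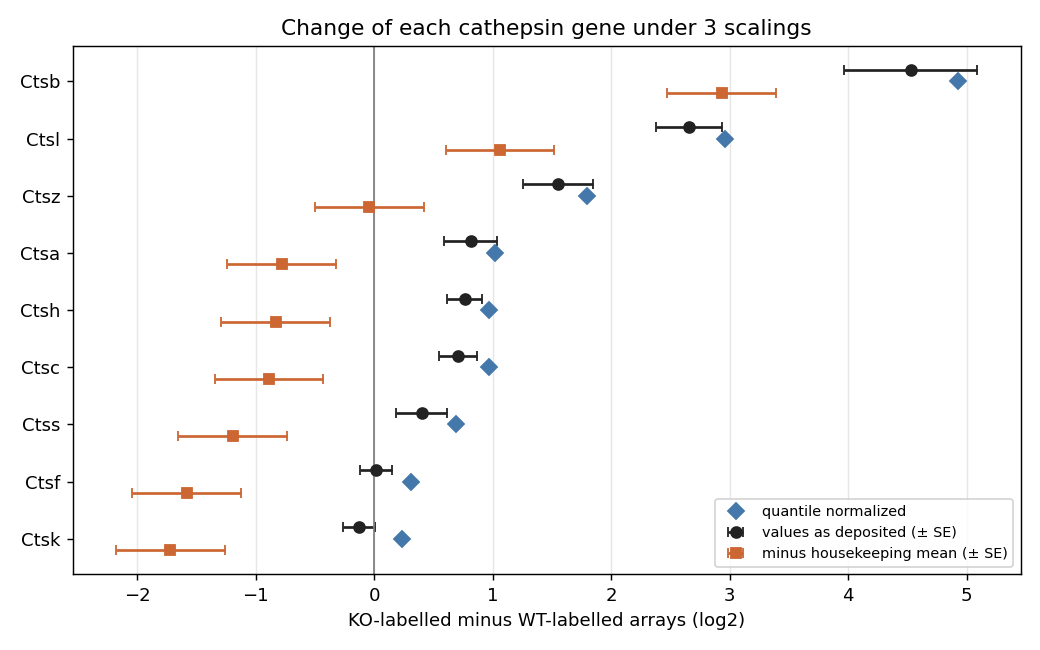
Difference between KO-labelled and WT-labelled arrays (log2, horizontal axis) for each cathepsin gene, on values as deposited (black, ± SE), after quantile normalization (blue) and relative to the mean of 15 housekeeping genes (orange, ± SE). Ctsb and Ctsl lie above 0 on all 3. Relative to the housekeeping genes Ctsa, Ctsh, Ctsc, Ctss and Ctsf move below 0, and Ctsz moves to -0.04.

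No detection calls come with the values. As a guide to the background, the mean signals of olfactory receptor genes had a 95th percentile of 9.92 on WT-labelled and 8.69 on KO-labelled arrays. None of the 9 cathepsin genes had a WT-labelled mean above the first, and 3, Ctsb, Ctsl and Ctsz, had a KO-labelled mean above the second. Signals of different probe sets are not on a common scale, so this is no detection limit. Folds are uncertain where the WT-labelled signal may be background.

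The 13 other genes named cathepsin, most of them a mouse cluster known from placenta, did not rise. Of these 0 rose and 3 fell, Ctsw, Ctsm and Cts6, and the median change was -0.52. Ctsw, a cathepsin of cytotoxic lymphocytes, went from 7.44 ± 0.04 (SD, n = 3) to 6.84 ± 0.15. All 3 calls were lost under quantile normalization and when each array was centred on its median, where the list had medians of -0.17 and -0.19. The placental genes Ctsj, Ctsm, Ctsq, Ctsr, Cts3, Cts6, Cts7 and Cts8 are close copies of each other, so their signals may mix. Ctso, a widely expressed cathepsin, was the only one of the 13 above 0, at 0.14 ± 0.13 (SE), without passing.

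Inhibitors of the cysteine cathepsins split by gene. Of 9 cystatin and stefin genes 2 rose, Cst3 and Cstb, and 3 fell, Kng1, Stfa2 and Stfa3. Cst3 encodes cystatin C, the main secreted inhibitor, and read 10.45, 10.77 and 9.66 on the WT-labelled and 13.36, 14.82 and 13.15 on the KO-labelled arrays. It rose by 3.48 ± 0.51 (SE), or 11.2-fold (limma adjusted p = 0.0354), and like Ctsb it was highest on KO 2. Cstb, for the intracellular inhibitor cystatin B, rose 2.63-fold (limma adjusted p = 0.0364). Relative to the housekeeping mean Cst3 was 1.89 higher and Cstb at -0.20. The kininogen gene Kng1, a gene of liver, went from 6.61 to 6.04, and the 3 falls were lost after quantile normalization and after centring on the median. The stefin A genes are near copies of each other and are uncertain.

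Genes that carry cathepsins to the lysosome rose in part. Of 14 tagging and sorting genes 4 rose and 0 fell, with a median change of 0.53 that turned to -1.07 relative to the housekeeping mean, where none was called higher. Vps26a and Vps35, subunits of the retromer that returns sorting receptors from endosomes, rose by 1.18 ± 0.13 and 1.82 ± 0.40 (SE), with limma adjusted p of 0.0354 and 0.0386. Sort1, which encodes the sorting receptor sortilin, rose 3.43-fold (limma adjusted p = 0.042), a call that was lost after quantile normalization (0.0526). The mannose 6-phosphate receptor genes M6pr and Igf2r were 1.17 and 0.45 higher without passing, and the tagging enzyme genes Gnptab, Gnptg and Nagpa stood at 0.96, -0.06 and -0.02, also without passing. Gnptab passed after quantile normalization and after centring (limma adjusted p = 0.0499 and 0.0439).

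Of 8 measured genes of other lysosomal proteins, most of them proteases, 2 rose and 0 fell. The 2 that rose, Psap and Neu1, do not encode proteases. No protease gene of this list passed on the values as deposited. Psap, which encodes the precursor of the saposins that assist lysosomal lipid breakdown, read 10.53, 10.25 and 9.36 on the WT-labelled and 13.69, 15.48 and 13.68 on the KO-labelled arrays. Its rise was 4.24 ± 0.57 (SE), or 18.9-fold (limma adjusted p = 0.0354), and 2.64 relative to the housekeeping mean. Neu1, the neuraminidase held in a complex with cathepsin A, rose by 0.51 ± 0.11 (SE) and stood at -1.09 relative to the housekeeping mean. Lgmn, whose product legumain cuts cathepsins to their mature form, was 0.76 higher with a limma adjusted p of 0.0508. It passed after quantile normalization and after centring (limma adjusted p = 0.0462 and 0.0322). The median change of the 8 was 0.46, and -1.14 relative to the housekeeping mean.

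Among TFEB, its relatives and their regulators, 2 of 10 genes rose and 0 fell. Both were partners in the folliculin complex, which acts on TFEB through Rag GTPases: Flcn rose by 0.67 ± 0.13 (SE) and Fnip1 by 1.20 ± 0.26, and both turned negative relative to the housekeeping mean, at -0.93 and -0.39. The transcription factor genes Tfeb, Tfe3, Mitf and Tfec stood at -0.25, -0.07, 0.10 and -0.24 without passing. The median change of the 10 was -0.02, and 0.29 after quantile normalization. Lamtor1, another of the 10, passed after quantile normalization and after centring (limma adjusted p = 0.046 and 0.0421).

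Genes of MHC class II presentation, in which cathepsin S acts, and of granule proteases, which cathepsin C activates, stayed mostly outside the threshold. Of 7 measured genes of MHC class II presentation 1 rose, Ifi30, a thiol reductase of the lysosome, from 6.80 ± 0.16 (SD, n = 3) to 7.63 ± 0.04. Ciita, the regulator of MHC class II transcription, went from 6.86 to 6.41 and was called lower, a call that was lost after quantile normalization and after centring. The class II chain genes H2-Aa, H2-Ab1 and H2-Eb1 stood at 0.02, 0.37 and 0.22 without passing. Of 7 granule serine protease genes 0 rose and 1 fell, the mast cell chymase gene Cma1, by 0.46, and its call too was lost after both.

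**Figure D3:**
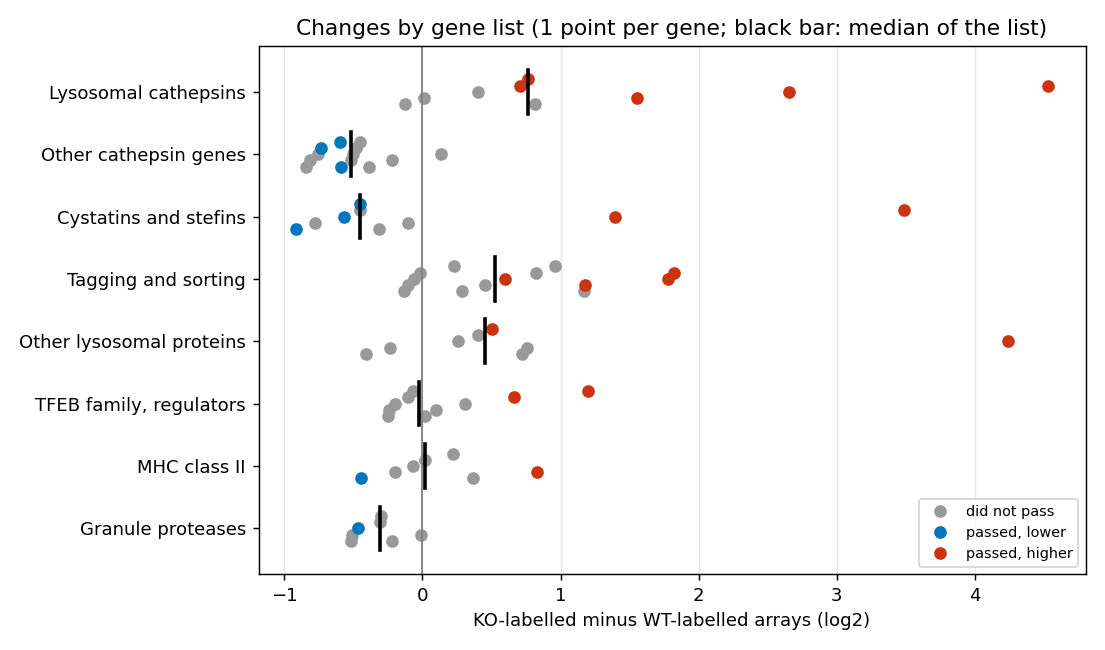
Difference between KO-labelled and WT-labelled arrays (log2, horizontal axis, values as deposited) for every measured gene of the cathepsin list and of 7 related lists, red where called higher, blue where called lower and grey where not called, with the median of each list as a black bar. The cathepsins have a median of 0.76 and the other cathepsin genes one of -0.52, and Ctsb, Cst3 and Psap lie farthest to the right in their lists.

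Markers of cell types that could supply cathepsins were set beside these values. Of 16 macrophage markers 3 rose, Lyz2, C1qb and Mertk, and 1 fell, Itgam, whose call was lost after quantile normalization and after centring. The mean level of the 16 was 7.34 to 7.40 in the WT-labelled group and 7.50 to 7.69 in the KO-labelled group. Lyz2, the macrophage lysozyme gene, rose by 1.61 ± 0.28 (SE), or 3.05-fold (limma adjusted p = 0.0354), and C1qb and Mertk 1.75-fold and 2.77-fold. Relative to the housekeeping mean these 3 stood at 0.02, -0.79 and -0.12. Adgre1, Cd68 and Csf1r, also on this list, read -0.03, -0.01 and 0.13 without passing. All 3 KO-labelled values stood above the WT-labelled ones for 5 of the 16 and below for 2, beside 11.1% and 44.9% of all probe sets. The median change of the 16 was 0.03, against -0.37 for all probe sets. After quantile normalization it was 0.33, with 4 of the 16 called higher and 0 lower, beside 6.11% and 3.35% of all probe sets. After centring it was 0.36, with 5 called higher and 0 lower, beside 7.8% and 4.94%. Of 14 measured adipocyte markers 10 rose and 0 fell, and their mean level was 8.85 to 10.60 in the first group and 12.34 to 13.65 in the second. Of 11 endothelial markers 9 rose and 0 fell, with means of 7.08 to 7.29 and of 8.40 to 9.00. Relative to the housekeeping mean the median changes of these lists were -1.56 for macrophages, 1.37 for adipocytes and -0.22 for endothelial cells. The median of all probe sets on that scale was -1.96. The part of macrophages, adipocytes and endothelial cells in the cathepsin values was not tested.

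Skeletal muscle markers were high on 2 of the KO-labelled arrays. Atp2a1, the calcium pump of fast muscle, read 11.20 and 13.39 on KO 1 and KO 2 but 7.12 on KO 3, within the 7.08 to 7.36 of the WT-labelled arrays. Ctsb on KO 3 was as high as on KO 1, at 12.86. Ctsl, Ctsz, Ctsh and Ctsc were higher on KO 3 than on KO 1, and Ctsa was lower, at 7.99 against 8.09. Like Atp2a1, Ctsb, Ctsl, Ctsz and Ctsa were highest on KO 2. The part of muscle in the cathepsin values was not tested. Of 5 osteoclast markers 1 rose, Acp5, which macrophages also express, and 1 fell, Dcstamp, beside the Ctsk difference of -0.13. The call of Dcstamp was lost after quantile normalization and after centring. Of 8 fibroblast markers 1 rose, Dcn, of 8 lymphocyte markers 4 fell, Cd3g, Cd79a, Ms4a1 and Ccr7, and of 5 dendritic cell markers none passed, with 2 at an unadjusted p under 0.05. Of the 4 lymphocyte calls 1 was left after quantile normalization, Cd3g, and 0 after centring. Of the 8 fibroblast markers 2 were called higher after quantile normalization and 4 after centring.

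**Figure D4:**
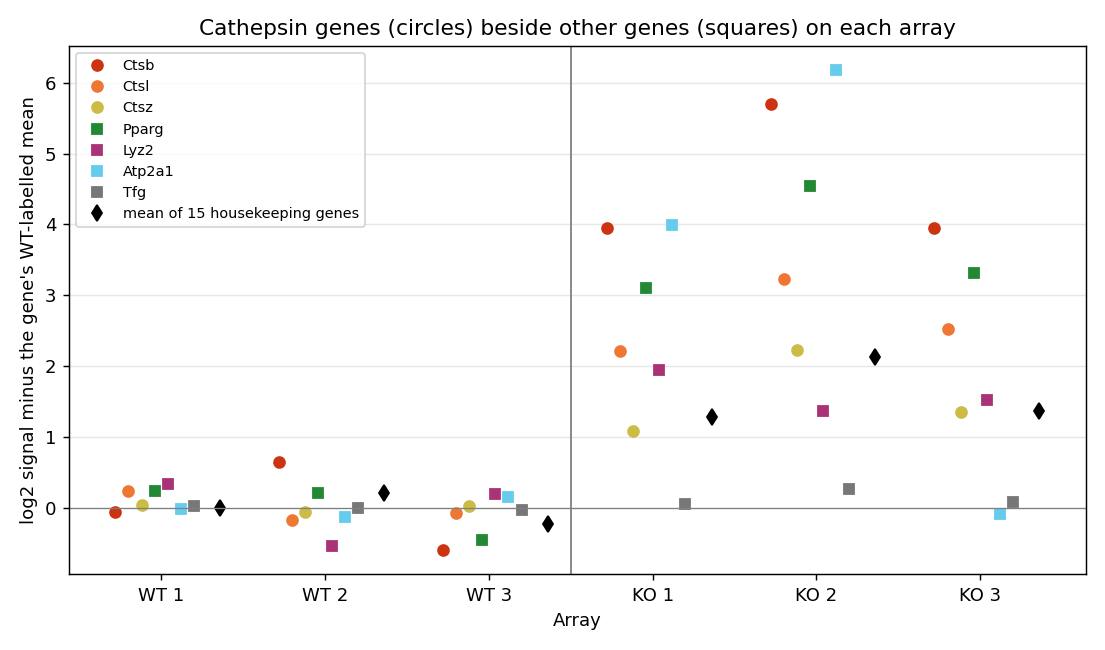
Log2 signal of each gene minus its mean on the WT-labelled arrays, for each of the 6 arrays, with cathepsin genes as circles, Pparg, Lyz2, Atp2a1 and Tfg as squares and the mean of 15 housekeeping genes as black diamonds. Ctsb, Ctsl and Ctsz lie above 0 on all 3 KO-labelled arrays. Atp2a1 lies above 0 on KO 1 and KO 2 and near the WT-labelled level on KO 3.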

How the data were processed

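The deposited table held 1 log2 signal per probe set and array for 65956 probe sets on 6 arrays. Per the labels' protocols, total RNA was labelled with biotin by a GeneChip WT Pico kit, and Transcriptome Analysis Console was used, per the submitters' processing notes, with no version given. The authors' background correction, normalization, summary method and genome build were not stated there (not given in the sources used here). The deposited log2 values ran from 2.81 to a ceiling of 19.93, which no cathepsin gene reached. The labels call the arrays biological replicates.

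GEO's annotation of the array, updated through RefSeq genes of GRCm38.p6, gave 31258 probe sets exactly 1 gene symbol, 1492 several and 33206 none. limma 3.58.1 in R 4.3.3 (lmFit, eBayes without trend, genotype as the only term) compared the groups over all probe sets, with Benjamini-Hochberg adjustment and a threshold of 0.05, after a check on simulated arrays. No scan dates came with the values, so no batch could be examined.

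The cathepsin genes and the 16 other gene lists were chosen with earlier results of these data known. The text names Tfg, all 10 cathepsin genes, up to 3 genes of each pathway list and up to 2 of each marker list with the smallest p. Other genes named were chosen after their values were seen. With 3 arrays a group, their number limits the precision. Python 3.11.15, pandas 2.3.3 and matplotlib 3.10.9 made the tables and plots.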

Additional observations from a re-analysis of the deposited data

How the results depend on the processing

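Ctsb and Ctsl kept their direction in all 18 alternatives run and their call in the 12 that left all arrays in. Leaving out 1 array in turn, the count of cathepsin genes called higher ran from 0 to 5, that of probe sets called higher from 0 to 3469 and lower from 0 to 10697, while Ctsb ran from 3.94 to 4.85. Ctsf, with no call, ran from -0.10 to 0.075, below 0 without WT 1, WT 3 or KO 3. Quantile normalization gave 2212 probe sets called lower, a median cathepsin change of 0.97 and Ctsk at 0.24; centring on the array median gave 3259, 1.09 and Ctsk at 0.20, and called 7 cathepsin genes. Of all calls 25.4% were higher on the values as deposited, 64.6% and 61.2% after these. Minus the housekeeping mean, 335 probe sets were called higher and 61693 lower, 2 cathepsin genes higher and 3 lower, with a median of -0.83, and Tfg called lower at -1.46; Ctsa, Ctsc, Ctsf, Ctsh, Ctss and Ctsz turned to -0.78, -0.89, -1.58, -0.83, -1.19 and -0.042. Without B2m in that mean, a setting chosen after seeing the data, these were 533, 60892, 2, 3, -0.60 and -1.23, with -0.55, -0.66, -1.35, -0.60 and -0.96 for the first 5, while Ctsz stood at 0.19. Array weights, only probe sets with 1 gene symbol, and a threshold of 0.1 gave 17432, 6773 and 24774 probe sets called lower, the last with 5902 higher. Ctsa passed in 7 of 12 settings with all arrays. The replicate block gave 4 cathepsin genes called higher, with Ctsc at a limma adjusted p of 0.06. Deviations of same-numbered arrays correlated at 0.0015, 0.20 and 0.14, and 3 of 6 arrays correlated best with their own number, so the numbers are not taken to pair the mice. The causes of these differences were not tested.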
